A study of Homo sapiens with 17 samples.

Results

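Rescue of DGCR8-deficient cells with the P351A form of DGCR8 was compared with rescue with the C352A form. The 2 forms carry alanine at neighbouring residues, 1 in place of a proline and 1 in place of a cysteine. The comparison rests on 6 of the 17 libraries of the series, 3 for each form, chosen by their labels. Of 1282 microRNA (miRNA) hairpins in the table of rescue libraries, the 336 with a mean of 10 or more over its 15 libraries were tested.

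All 15 rescue libraries came from HCT116 cells, an established colon carcinoma line, in which the CTT domain of DGCR8 had been deleted with CRISPR-Cas9; the labels call this a functional knockout and do not say how many clones were used. These cells received a mock rescue, wild-type DGCR8 (WT), C352A, P351A, or P351A together with ALA, an agent the labels do not spell out, in 3 libraries each. The deletion is therefore shared by every rescue group, the mock group included. The 2 remaining libraries, used here only as a separate readout, came from parental HCT116 cells and from the cells with the deletion and no rescue (dCTT), 1 library each. Small RNA of 17 to 30 nt was sequenced, so DGCR8 messenger RNA and protein were not measured and the amount of each rescue form is not known from these files. Whether the replicates of a form were grown as separate cultures is not given by the labels; p-values therefore reflect the spread among these libraries alone, and that spread may be technical.

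Microprocessor, the nuclear complex of the nuclease DROSHA with the RNA-binding protein DGCR8, cuts hairpins out of primary miRNA transcripts. DGCR8 binds heme through a domain in which the cysteine replaced in C352A is a ligand of the heme iron, and substitutions at this cysteine or at the proline before it are used to impair heme binding. The series asks how heme bears on the recognition of the apical loop, the unpaired end of a hairpin. A few hairpins, among them mir-320 and short introns called mirtrons, reach DICER without Microprocessor.

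The mature sequences below belong to hairpins the comparison turned on. Values were given per hairpin and its arms were not measured separately, so each mature miRNA named here stands for its hairpin. The sequences are shown 5′ to 3′ as RefSeq gives them for GRCh38.p14, with the seed (bases 2 to 8) in capitals. Hairpins of several miRNAs with 1 seed stood apart in these libraries. Mature miR-103a-3p and miR-107 share a seed, and their hairpins were among those with the largest excess in P351A.
miR-103a-3p: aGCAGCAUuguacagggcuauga
miR-107: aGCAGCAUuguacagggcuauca
miR-15a-5p and miR-16-5p share a seed and are made from hairpins 146 bases apart on chromosome 13, but went in opposite directions. miR-16-5p also comes from mir-16-2, an unlinked copy with nearly the same reads.
miR-15a-5p: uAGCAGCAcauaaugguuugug
miR-16-5p: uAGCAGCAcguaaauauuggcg
miR-17-5p and miR-20a-5p share a seed, and miR-19a-3p and miR-19b-3p share another. Hairpins of all 4 lie in the miR-17-92 transcript, which gave unequal changes. The reads of mir-19b-1 were at most 0.05% apart from those of its copy mir-19b-2, so they cannot be assigned to this transcript.
miR-17-5p: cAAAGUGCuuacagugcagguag
miR-20a-5p: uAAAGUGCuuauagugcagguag
miR-19a-3p: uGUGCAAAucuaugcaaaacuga
miR-19b-3p: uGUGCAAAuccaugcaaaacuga
miR-221-3p and miR-222-3p, from a common transcript on the X chromosome, and miR-29a-3p and miR-29b-3p, from a common transcript on chromosome 7, also parted. miR-29b-3p also comes from mir-29b-2, a copy elsewhere with similar reads.
miR-221-3p: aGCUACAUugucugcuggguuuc
miR-222-3p: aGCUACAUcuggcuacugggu
miR-29a-3p: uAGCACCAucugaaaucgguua
miR-29b-3p: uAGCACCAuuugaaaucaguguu
The let-7 miRNAs share a seed and were all higher in P351A, by unequal amounts.
let-7a-5p: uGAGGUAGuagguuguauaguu
let-7d-5p: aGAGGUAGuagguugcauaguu
let-7e-5p: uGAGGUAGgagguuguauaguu
let-7i-5p: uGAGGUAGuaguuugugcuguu
The main miRNAs that were lower in P351A, besides miR-16-5p and miR-222-3p, have seeds unlike one another. The seed of miR-373-3p overlaps that of miR-17-5p and miR-20a-5p, shifted by 1 base.
miR-373-3p: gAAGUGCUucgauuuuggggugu
miR-126-3p: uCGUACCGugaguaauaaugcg
miR-877-5p: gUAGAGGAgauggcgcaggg
miR-182-5p: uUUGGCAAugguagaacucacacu

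Because the series concerns the apical loop, hairpins from the miR-17-92 and miR-15/16 transcripts, whose members parted, and mir-103a-1, which had no neighbour compared, are shown whole, with the bases between the 2 annotated mature arms in capitals. Taken as these bases alone, the loops of mir-17, mir-19a and mir-20a hold the letters UGU, and those of mir-15a, mir-16-1 and mir-103a-1 do not.
mir-17: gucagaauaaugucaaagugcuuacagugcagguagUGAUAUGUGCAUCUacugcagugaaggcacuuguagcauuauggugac
mir-19a: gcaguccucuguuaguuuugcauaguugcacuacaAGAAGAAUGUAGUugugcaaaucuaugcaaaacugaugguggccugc
mir-20a: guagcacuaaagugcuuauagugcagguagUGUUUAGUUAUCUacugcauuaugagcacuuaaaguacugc
mir-15a: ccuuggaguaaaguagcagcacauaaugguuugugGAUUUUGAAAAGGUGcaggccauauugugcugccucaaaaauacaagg
mir-16-1: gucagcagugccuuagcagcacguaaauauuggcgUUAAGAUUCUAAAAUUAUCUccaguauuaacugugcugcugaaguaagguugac
mir-103a-1: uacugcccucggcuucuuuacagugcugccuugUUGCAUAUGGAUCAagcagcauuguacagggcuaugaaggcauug

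The P351A libraries held 1666688, 2175294 and 1708984 reads, and the C352A libraries held 1023184, 199133 and 305476. The deposited values are these reads multiplied by 1 factor for each library, and are called scaled reads below. They summed to between 763850 and 881265 in P351A and between 429597 and 461724 in C352A, a ratio of means of 1.86 (exact 2-sided permutation p = 0.1, the smallest 3 against 3 libraries can give). The copies of mir-320 took 27.05% ± 2.24 (SD, n = 3) of the reads in P351A and 44.0% ± 0.334 (n = 3) in C352A, with no overlap (exact permutation p = 0.1). Over the 8 library measures compared, the smallest adjusted p was 0.114. More hairpins were detected in P351A (848 to 877) than in C352A (587 to 839), but with every library thinned to 146023 reads the order turned, with 427 to 460 in P351A and 506 to 539 in C352A.

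A second measure set the libraries apart before any test. mir-373, a hairpin of an embryonic stem cell cluster, had no read in the 3 P351A libraries or in the 3 libraries of P351A with ALA, and had between 1038 and 5176 scaled reads in each of the other 9 rescue libraries. mir-223, a myeloid miRNA below the minimum for testing, split the 15 libraries in the same way, with 28 reads in C352A. These 2 were among 7 hairpins with reads in every C352A library and none in P351A. Another 36 of the 1282 hairpins had reads in every P351A library and none in C352A, none of which split all 15 libraries. The P351A libraries were the deeper ones, and none of these 36 held more than 32 reads over them. The comparison of P351A with C352A runs across the division that mir-373 gave. An effect of the rescue form and any other difference between the 2 sets of libraries thus cannot be told apart here.

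P351A gave higher values than C352A for most miRNAs that changed. By limma, with Benjamini-Hochberg adjustment over the 336 hairpins and a threshold of 0.05, 124 hairpins (36.9%) were higher in P351A, 47 (14%) were lower and 165 were not called. The median difference was 0.56 on the log2(value + 1) scale. The 3 libraries of each form did not overlap for 160 hairpins with P351A above (47.6%) and for 63 with P351A below (18.8%). Many hairpins are copies that give the same mature miRNA and hold nearly the same reads, such as the 3 let-7a hairpins, so these counts overstate the number of separate miRNAs.

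The direction of the balance belonged to the scale. With each library centred on its median tested hairpin, every difference moved down by 0.44, and 86 hairpins (25.6%) were higher and 78 (23.2%) lower. With equal library totals 65 (19.3%) were higher and 105 (31.2%) lower. With edgeR's TMM scaling the counts were 93 (27.7%) and 77 (22.9%), and with DESeq2's size factors 74 (22%) and 91 (27.1%). With libraries centred on the mean of the 5 tested Microprocessor-independent hairpins, every difference moved up by 0.53. The counts were then 176 (52.4%) and 17 (5.06%). Of these 5 hairpins, mir-320a (0.24) and mir-484 (0.37) were higher in value in P351A on the deposited scale. The mirtrons mir-877 (-1.43), mir-1226 (-0.81) and mir-1224 (-1.03) were lower, and the shift upward rests on them. The results below say where a direction turned. Calls of small differences were lost most often: let-7i, mir-15a, mir-200c, mir-10a, mir-100, mir-192, mir-375, mir-500a, mir-320a, mir-320c-1, mir-23a, mir-222, mir-4435-1, mir-1224 and mir-1226 each lost their call under 4 or more of 20 settings. The count of lower hairpins also depended on single libraries. It was 23 without the second C352A library, 28 without the third, 27 without the second P351A library and 26 without the third.

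**Figure D1:**
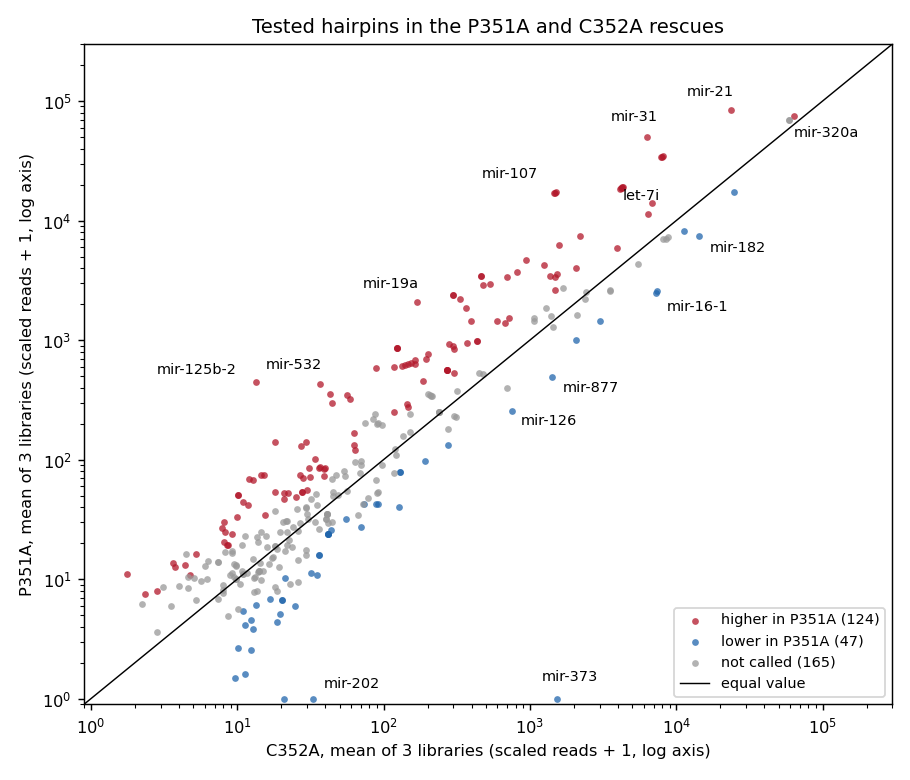
Mean scaled reads + 1 of the 336 tested hairpins in C352A (x axis, log scale) and in P351A (y axis, log scale), 3 libraries each. Red points are the 124 hairpins called higher in P351A, blue points the 47 called lower and grey points the 165 not called; mir-31, mir-107 and mir-19a lie well above the line of equal values, and mir-373 lies on the floor of the y axis.

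Among hairpins with a mean of 1000 or more over the 15 libraries, the largest excess in P351A was in the miR-103/miR-107 group, which is known for targeting metabolic genes and is made from introns of the pantothenate kinase genes. mir-107 (chr10:89592747-89592827 on GRCh38.p14, minus strand, in an intron of PANK1) had 14896, 18916 and 17433 scaled reads in the P351A libraries and 1579, 1438 and 1354 in the C352A libraries. The lowest P351A library was far above the highest C352A library. The ratio of means was 11.7, and the log2 difference was 3.55 ± 0.27 (SE, limma adjusted p = 1.6e-08). For comparison, the WT rescue averaged 10398 and the mock rescue 2313. mir-103a-1, in an intron of PANK3, differed from mir-107 by at most 1.73% in any of the 6 libraries, so the group's 3 hairpins are 1 signal.

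mir-31, which lies in an intron of the long non-coding MIR31HG and is often high in colon carcinoma, was among the 5 hairpins with the highest mean in the 6 libraries. It had 44225, 52751 and 53218 scaled reads in P351A and 6024, 6229 and 6593 in C352A. The ratio was 7.97 and the log2 difference 2.99 ± 0.23 (SE, adjusted p = 1.6e-08). All C352A libraries lay below the mock mean of 12683, and all P351A libraries above the WT mean of 37974.

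mir-21, a miRNA with known growth-promoting roles that lies in an exon of VMP1, had 68606, 92311 and 89927 scaled reads in P351A and 29069, 20844 and 21506 in C352A. The groups did not overlap, the ratio was 3.51 and the log2 difference 1.82 ± 0.28 (SE, adjusted p = 5.2e-05). mir-210, known to respond to low oxygen, had 272, 307 and 309 scaled reads in P351A and 44.2, 42.2 and 43.6 in C352A, a ratio of 6.83 (log2 difference 2.74 ± 0.33, SE).

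mir-34a, a target of p53, which HCT116 cells keep in a working form, had 299.7, 360.6 and 400.7 scaled reads in P351A and 39.7, 37.7 and 47.8 in C352A. The ratio was 8.47 and the log2 difference 3.05 ± 0.46 (SE, adjusted p = 4.5e-05). mir-101-1, known for targeting the methyltransferase EZH2, had 2039, 2735 and 2323 scaled reads in P351A and 288, 293 and 304 in C352A. Its log2 difference was 2.99 ± 0.31 (SE, adjusted p = 6.9e-07). In both, every P351A library was several times the highest C352A library.

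The other hairpins with the largest excess by the rule for named hairpins were mir-532 (log2 difference 3.60), mir-19a (3.60), mir-455 (3.04), mir-19b-1 (2.87), mir-9-1 (2.85), mir-340 (2.73), let-7e (2.72) and mir-660 (2.66). All lay apart in the 6 libraries, and all kept their direction under every scaling tried. mir-125b-2 had the largest fitted excess of any hairpin, 5.67, but with an SE of 1.34. Its C352A libraries held 27.1, 8.88 and 1.41 scaled reads against 533, 440 and 372 in P351A, and its WT libraries were as uneven (mean 333, SD 526).

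The let-7 family, which restrains growth genes such as RAS and HMGA2, was higher in P351A throughout: 12 of 12 hairpins were called, with a median log2 difference of 2.11 against 0.56 over all tested hairpins. The share called higher among all tested hairpins was 36.9%. let-7a-1 (chr9:94175957-94176036, plus strand, in an intron of a long non-coding RNA) had 28970, 35958 and 37828 scaled reads in P351A and 7997, 8320 and 7766 in C352A, with a log2 difference of 2.08 ± 0.22 (SE, adjusted p = 6.9e-07). let-7d, in an intron of the same RNA, had 2710, 2924 and 3095 against 337, 601 and 496, a log2 difference of 2.64. The family was not uniform.

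let-7i had the smallest difference of the family, 0.82 ± 0.28 (SE, adjusted p = 0.024). Its values were 9866, 12674 and 11517 in P351A and 7356, 5825 and 6078 in C352A, while WT averaged 70430. Both mutant groups thus lay far below WT for let-7i, whereas for let-7a-1 P351A (34252) lay above the WT mean of 28177. With equal library totals the let-7i difference turned to -0.07. let-7b was the next smallest, at 1.10 ± 0.23. Under the other scalings 10 to 12 of the 12 let-7 hairpins remained called higher and none lower.

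The miR-17-92 family holds growth-promoting miRNAs under MYC control that come from the MIR17HG transcript and its relatives. It had 10 of 12 tested hairpins higher and none lower, with a median of 2.16, against 36.9% of all tested hairpins higher. mir-19b-1 and mir-92a-1 held nearly the same reads as their copies in the list (at most 0.05% and 1.24% apart). Under the other scalings 9 to 11 of the 12 were called higher and none lower. mir-19a (chr13:91350891-91350972, plus strand, exon of MIR17HG) had 1420, 2593 and 2189 scaled reads in P351A and 176, 126 and 201 in C352A, a ratio of 12.3 (adjusted p = 3.6e-05). mir-92a-1, at the other end of the cluster, had 19122, 21013 and 17322 against 6448, 3728 and 2713, a log2 difference of 2.25 ± 0.35 (SE). mir-93 and mir-106b of the related MCM7-intron cluster were higher by 1.78 and 1.58.

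mir-17 itself was not called. It had 492, 535 and 526 scaled reads in P351A and 494, 484 and 457 in C352A, a log2 difference of 0.11 ± 0.44 (SE, adjusted p = 0.85), although it lies 286 bases upstream of mir-19a in the same exon. Both groups lay below the WT mean of 3371. mir-20a, with the same seed as mir-17, had 530, 693 and 653 against 151.6, 139.8 and 146.3, a log2 difference of 2.08 ± 0.47 (SE).

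Epithelial miRNAs differed in part. Of the miR-200 family, which keeps epithelial character by targeting ZEB1 and ZEB2, 3 of 5 hairpins were higher and none lower (median 1.43). The share higher among all tested hairpins was 36.9%. mir-429 was higher by 2.09, mir-200b by 1.74 and mir-200c by 1.43. mir-141, the neighbour of mir-200c, went the other way in value without being called (357, 423 and 418 in P351A, 644, 706 and 726 in C352A, adjusted p = 0.12). With library medians or totals made equal, mir-141 was called lower and mir-200c was not called.

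Over the whole list of colon epithelial markers, which adds mir-192, mir-194, mir-215, mir-203a and mir-375, 7 of 11 were higher, against 36.9% of all tested hairpins. All 11 had reads in both groups. The summed level of the list was 2992 to 3402 scaled reads in P351A and 1529 to 1751 in C352A. For such markers fewer cells of a type and less RNA per cell cannot be told apart in bulk libraries. With library medians made equal or with TMM, 4 were higher and 1 lower, and with equal totals or with DESeq2's size factors 2 were higher and 1 lower.

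Of 24 hairpins fixed as markers of other cell types, 18 were in the table and 9 were tested. Of these 7 were higher, 1 was lower (mir-126) and 1 was not called (mir-145). Over all tested hairpins 36.9% were higher and 14% lower. mir-199a-1 and mir-199a-2 held the same values in the 6 libraries and are 1 signal. The summed level of the list was 2517 to 3692 scaled reads in P351A and 1126 to 1247 in C352A. mir-9-1, a neural miRNA, had 664, 1023 and 891 scaled reads in P351A and 167, 124 and 75.9 in C352A (log2 difference 2.85 ± 0.47, SE); its 3 copies are 1 signal. mir-143, known from smooth muscle, had 120, 154 and 146 against 53.2, 17.8 and 14.1. Its cluster partner mir-145 averaged 5.76 in P351A and 6.40 in C352A (log2 difference -0.12). mir-199b, known from fibroblasts, had 67.8, 79.4 and 72.2 against 13.5, 13.3 and 14.1. Among the blood cell markers, mir-150 was at 0 in all 6 libraries, mir-142 had 21 reads in P351A and 8 in C352A, mir-144 had 7 and 3, mir-451a had 3 and 3, and mir-223 had 0 and 28. Of the other untested markers, mir-214 was at 0, mir-122 had 2 reads in P351A and 0 in C352A, and each mir-133a copy had 2 and 1. Whether other cells had a part in these differences was not tested.

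The CLCN5-intron cluster on the X chromosome had 4 of 5 tested hairpins higher and none lower, with a median of 1.15. Among all tested hairpins 36.9% were higher. mir-532 had 404, 464 and 427 scaled reads in P351A and 47.4, 31.1 and 28.1 in C352A, a ratio of 12.1 and a log2 difference of 3.60 ± 0.36 (SE, adjusted p = 4.1e-07). mir-660, from the same intron cluster, was higher by 2.66. mir-501, also of the cluster, had 104, 113 and 67.8 against 86.2, 62.1 and 40.8, and these ranges overlapped. With library medians made equal, 2 of the 5 were called higher.

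Smaller families differed in how many members were called, beside 36.9% of all tested hairpins called higher. Of the miR-99/miR-100/miR-125 group 4 of 6 were higher and none lower (median 1.39), with mir-125b-1 at 1.82, mir-99b at 1.34 and the abundant mir-100 at 1.05. Both miR-148/miR-152 hairpins tested were higher (mir-148a by 1.52), and both miR-34 hairpins tested were. Of the miR-181 family 3 of 6 were higher, mir-181c by 1.24 and the 2 copies of mir-181b by about as much, while mir-181a-1 had 7310, 7814 and 6790 scaled reads in P351A and 8344, 8896 and 9165 in C352A without a call. The miR-181 counts turned with the scale: 1 was higher and 2 were lower with library medians made equal, 3 and 2 with TMM, and 0 and 2 with equal totals or with DESeq2's size factors. Of the miR-30 family 1 of 6 was called, mir-30d, higher by 1.26; with equal totals 0 were higher and 1 was lower. Of the miR-10/miR-196 hairpins 1 of 5 was called, mir-10a, higher by 0.62; this difference turned with equal totals and with DESeq2's size factors. For mir-10a both groups (5908 and 3934 on average) lay far below the WT mean of 65995.

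Single miRNAs outside the lists included mir-378a, known in energy metabolism and made from an intron of PPARGC1B, with 4122, 5005 and 4912 scaled reads in P351A and 909, 983 and 911 in C352A (log2 difference 2.32 ± 0.28, SE). mir-140, mir-28 and mir-339 were higher by 2.34, 2.27 and 2.46. mir-449a, counted to the wider miR-34 family, was higher by 2.67. These 5 were chosen after their values were seen.

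Fewer miRNAs were lower in P351A. The most one-sided was mir-373 (chr19:53788705-53788773, plus strand), with 1038, 1955 and 1565 scaled reads in C352A and no read in any P351A library. Its 4294 reads in C352A against a floor of 3 reads over the P351A group gave a value at least 3393-fold lower in P351A. mir-372, from the same cluster, had 61 reads in C352A and mir-202, a gonadal miRNA, had 89, and both had none in P351A. In P351A with ALA they had 2 and 1 reads, while each of the 9 mock, WT and C352A libraries held reads of both. They thus came close to the division of the libraries that mir-373 gave. Against the same floor they were at least 44.1-fold and 71.1-fold lower. Of the 9 members of the embryonic stem cell list 4 were in the table, and the 2 others had no read in these 6 libraries. mir-373 divides the 15 libraries into 2 sets.

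miR-16, a miRNA that restrains BCL2 and cyclins, was lower in P351A. mir-16-1 (chr13:50048973-50049061, minus strand, in an intron of DLEU2) had 2398, 2377 and 2595 scaled reads in P351A and 5345, 7858 and 8427 in C352A. C352A was 2.93-fold higher by the ratio of means, and the log2 difference was -1.53 ± 0.24 (SE, adjusted p = 6.1e-05). The mock mean was 6097 and the WT mean 17175, so the P351A libraries lay below all other groups without ALA. mir-16-2, an unlinked copy with the same mature miR-16-5p, differed from mir-16-1 by at most 5.58% and is the same signal.

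Its partners in the same transcripts were higher. mir-15a had 116, 138 and 137 scaled reads in P351A and 48.3, 77.7 and 59.1 in C352A (log2 difference 1.09, adjusted p = 0.037), and mir-15b had 77.0, 92.8 and 87.8 against 26.2, 46.6 and 35.2 (1.27, adjusted p = 0.0065). The miR-15/16 list as a whole thus had 2 hairpins higher and 2 lower of 5, with a median of -0.02. The share over all tested hairpins was 36.9% higher and 14% lower. The 2 lower hairpins are the mir-16 copies, which are 1 signal. Under equal totals neither mir-15a nor mir-15b was called.

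mir-126, an endothelial miRNA in an intron of EGFL7, had 231, 277 and 259 scaled reads in P351A and 639, 801 and 824 in C352A. C352A was 2.95-fold higher (log2 difference -1.55 ± 0.26, SE, adjusted p = 0.00012), close to the mock mean of 732. mir-877, a mirtron in ABCF1 that needs no Microprocessor, had 609, 507 and 342 in P351A and 652, 1886 and 1693 in C352A. Its groups did not overlap, but the first C352A library was close to the P351A range; the log2 difference was -1.43 ± 0.41 (SE, adjusted p = 0.0086). The mirtrons mir-1226 and mir-1224 were lower by less (log2 differences -0.81 and -1.03).

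The miR-183/miR-96/miR-182 cluster, made from a transcript on chromosome 7 and known in sensory tissue and in carcinomas, had 2 of 3 hairpins lower and none higher. Among all tested hairpins 14% were lower. mir-182 had 8319, 8052 and 6030 scaled reads in P351A and 17802, 13097 and 12173 in C352A (log2 difference -0.94 ± 0.19, SE, adjusted p = 0.00071). mir-183 had 896, 1074 and 1050 against 2107, 2059 and 2003, a difference of -1.03. mir-96 had 33.5, 29.6 and 36.6 against 48.7, 88.8 and 60.5 and was not called (adjusted p = 0.14). With libraries centred on the Microprocessor-independent hairpins none of the 3 was called.

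Other named hairpins that were lower were mir-7641-2 (126 scaled reads on average in C352A and 39.2 in P351A), mir-23a (-0.96, adjusted p = 0.049), mir-4435-1 (-0.71), mir-320c-2 (-1.04) and mir-320c-1 (-0.47). mir-222, an abundant miRNA that targets the cell-cycle inhibitor p27, had 17322, 22460 and 12448 scaled reads in P351A and 21061, 25942 and 27802 in C352A. It was called lower (log2 difference -0.55 ± 0.17, SE, adjusted p = 0.016), although its libraries overlapped. mir-221 had 14730, 20531 and 19485 against 5091, 3480 and 3893 and was higher by 2.14 ± 0.30.

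The copies of mir-320 have a special place, since they do not need Microprocessor. Their sum on the deposited scale was 217739 to 226089 scaled reads in P351A and 190727 to 202521 in C352A. mir-320a had 77467, 75882 and 72183 scaled reads in P351A and 65861, 63241 and 62143 in C352A (log2 difference 0.24 ± 0.09, SE, adjusted p = 0.045). With library medians or totals made equal it was lower in P351A in value, at -0.20 and -0.66, so its direction is set by the scale. mir-320b-1 was not called (0.23, adjusted p = 0.060) and turned under the same scalings. Of the list of 8 Microprocessor-independent hairpins, 5 were tested: mir-320a was higher, the mirtrons mir-877, mir-1226 and mir-1224 were lower, and mir-484 was not called (562, 504 and 534 in P351A, 228, 506 and 602 in C352A).

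Some families showed no call or almost none, beside 36.9% of all tested hairpins called higher and 14% called lower. None of the 3 miR-26 hairpins was called; mir-26a-1 had 2460, 2545 and 2784 scaled reads in P351A and 2518, 4181 and 3810 in C352A. Of the 6 miR-23/27/24 hairpins mir-23a alone was called; mir-27a had 2023, 2382 and 2265 against 2422, 2501 and 2192. Both miRNAs lay far below WT in both groups (WT means 24401.5 for mir-26a-1 and 21813 for mir-27a). With equal totals all 6 of the miR-23/27/24 list and 2 of the miR-26 list were called lower, against 31.2% of all tested hairpins. A p that misses the threshold does not show that values were alike. In simulated data of 336 hairpins, differences of 1 on the log2 scale were called in 79% of cases and differences of 2 in 98%. The simulation gave every hairpin the same fixed spread, not estimated from these libraries, so these shares need not hold for them.

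Ratios of hairpins from 1 transcript do not depend on the library's scale. The 15 pairs compared were chosen after their values were seen, so their count does not measure how common such differences are. Among all tested hairpins taken singly, the libraries did not overlap for 47.6% with P351A above and 18.8% with P351A below. In 14 of the 15 pairs the 3 P351A ratios lay apart from the 3 C352A ratios. With 3 against 3 libraries this gives an exact permutation p of 0.1, the smallest possible, and an adjusted p of 0.107. Each value below is log2 of the ratio of scaled reads + 1, as mean ± SD of 3 libraries. mir-92a-1, mir-181b-1 and let-7a-1 held nearly the same reads as their numbered copies (at most 1.24%, 0.55% and 2.84% apart). mir-16-1 and mir-16-2, and mir-29b-1 and mir-29b-2, also held similar reads (at most 5.58% and 15.7% apart). The reads of all these hairpins thus cannot be assigned to 1 transcript.

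Within MIR17HG, mir-19a over mir-17 was 1.95 ± 0.38 in P351A and -1.53 ± 0.38 in C352A. The separate libraries gave 1.53, 2.27 and 2.06 against -1.48, -1.93 and -1.18, so mir-19a exceeded mir-17 in every P351A library and fell short of it in every C352A library. C352A had the ratio of the WT (-1.73 ± 0.37) and mock (-1.52 ± 0.21) libraries. mir-20a over mir-17 was 0.26 ± 0.14 in P351A and -1.71 ± 0.07 in C352A, again with WT (-1.55) and mock (-1.44) near C352A. mir-92a-1 over mir-17 was 5.20 ± 0.14 against 3.07 ± 0.58.

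The same division held for miR-15 over miR-16. mir-15a over mir-16-1 was -4.23 ± 0.13 in P351A and -6.85 ± 0.26 in C352A, and mir-15b over mir-16-2 was -4.90 ± 0.15 and -7.65 ± 0.25. Since mir-16-1 and mir-16-2 share their reads, these 2 ratios are not independent. WT (-6.28 and -6.37) and mock (-5.78 and -6.35) lay between the 2 forms.

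In 4 further pairs the forms differed by 2.69 to 3.13. mir-29a over mir-29b-1 was 5.97 ± 0.12 in P351A and 2.84 ± 0.27 in C352A, with WT at 2.78 and mock at 3.10. mir-29c over mir-29b-2, its counterpart on chromosome 1, was 0.06 ± 0.11 and -2.67 ± 0.60, with WT at -3.42. Since mir-29b-1 and mir-29b-2 differed by at most 15.7% in any of the 6 libraries, the miR-29 ratios are not independent of each other. In the CLCN5 cluster mir-532 over mir-501 was 2.20 ± 0.37 and -0.78 ± 0.24, with WT at 0.14 and mock at -0.77. mir-221 over mir-222 was 0.09 ± 0.48 and -2.59 ± 0.47, with WT at -0.97, between the 2 forms.

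In the other 6 pairs the difference was 2.22 or less. mir-200c over mir-141, 398 bases apart, was -1.25 ± 0.20 in P351A and -3.47 ± 0.19 in C352A, with WT at -3.05. mir-181b-1 over mir-181a-1 was -2.90 in P351A and -4.34 in C352A, mir-27a over mir-23a was 4.53 and 3.66, and let-7d over let-7a-1 was -3.55 and -4.11. mir-93 over mir-25 was 0.24 and -0.18. In 1 pair the libraries overlapped: mir-183 over mir-182 was -2.88 ± 0.35 in P351A and -2.78 ± 0.26 in C352A (exact permutation p = 0.8). In P351A with ALA, made with the same DGCR8 form, the mean ratio was nearer to P351A than to C352A in 10 of the 15 pairs, among them mir-20a over mir-17 (0.27), mir-92a-1 over mir-17 (5.52), mir-29a over mir-29b-1 (5.08) and mir-532 over mir-501 (3.35). It was nearer to C352A in 5, among them mir-221 over mir-222 (-2.27) and mir-19a over mir-17 (-0.03). The P351A libraries with and without ALA are also the set without reads of mir-373. The form and any other difference between the sets of libraries thus cannot be told apart in these ratios. This holds also where WT and mock lay near C352A.

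Readouts from other libraries described which hairpins were higher in P351A. Of the 187 hairpins that WT raised over mock by limma (55.7% of those tested), 98 were higher in P351A than in C352A and 7 were lower, with a median difference of 1.09. Of the 25 that WT lowered (7.44%), none was higher and 14 were lower, with a median of -0.79. The 124 not called in WT against mock held 26 higher and 26 lower, with a median of -0.07. Across the 336 hairpins the log2 difference between the forms and that between WT and mock had a Spearman rho of 0.49 and a Pearson r of 0.45. Over the more abundant 168 hairpins (mean value at least the median) rho was 0.23. The points share their abundance and the spread estimated in 1 fit.

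Exceptions to this division carried some of the largest differences. mir-9-1 was higher in P351A by 2.85, but WT and mock did not differ for it by the test (adjusted p = 0.84, with means of 229 and 185). mir-532 was likewise not called in WT against mock (138 and 85.5 on average). In the other direction mir-16-1, mir-126, mir-182, mir-183, mir-23a and mir-222 were raised by WT and yet lower in P351A than in C352A.

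The parental and dCTT libraries gave a similar division, with 1 library each and thus no test. Of 260 tested hairpins in that table, 223 (85.8%) were at least 4-fold lower in dCTT. Of these 116 were higher in P351A and 8 lower, with a median of 1.08. Of the 37 less affected, 1 was higher (mir-320a) and 12 were lower, with a median of -0.23. The 76 hairpins not in that table, most of them of low value, held 7 higher and 27 lower. Across the 260 hairpins rho was 0.46 and r 0.48, and rho was 0.48 over the more abundant 165.

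Hairpins with late database numbers behaved differently from the early ones. Of 108 tested hairpins numbered 1200 or higher, 8 were higher in P351A and 34 lower, with a median of -0.26. Of 228 with lower numbers or let-7 names, 116 were higher and 13 lower, with a median of 1.04. Of the 47 hairpins called lower in P351A, 34 thus carried a late number. The more abundant 168 hairpins had 87 higher and 17 lower, and the other 168 had 37 higher and 30 lower, so abundance moved with this division too; its part was not tested.

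Hairpins with and without UGU between their 2 annotated arms, taken here as the apical loop, had similar medians. Letters that lie in an arm or reach into one were not counted, and the unpaired bases were not determined. Loops between 2 annotated arms could be read for 191 of the 336 hairpins, of the 273 that matched a RefSeq hairpin. The letters UGU, on the hairpin's own strand, were in 78 of these loops (40.8%, against 33.7% of 739 RefSeq hairpins with 2 arms). Of those 78, 35 were higher in P351A and 11 lower (median 0.91), and of the 113 without UGU 49 were higher and 13 lower (median 0.84). With UGUG, which holds UGU, the medians were 1.11 in 32 hairpins and 0.82 in 159. With GUG, which overlaps UGUG, they were 0.83 in 78 and 0.85 in 113. Among the printed hairpins, mir-17 with UGU was not called and mir-19a and mir-20a with UGU were higher, while mir-103a-1 and mir-16-1 without it were higher and lower.

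Loop length and the log2 difference had a rho of 0.01 over 191 hairpins. Base composition of the whole hairpin did differ between the calls in value: the median GC content was 50% in hairpins higher in P351A, 57.9% in those lower and 52.8% in those not called, and rho with the log2 difference was -0.26 over 273 hairpins.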

How the data were processed

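Per the labels' protocols, RNA of 17 to 30 nt was cut from a gel and sequenced after TruSeq Small RNA preparation. The submitters' processing notes name cutadapt 1.14, Bowtie2 and hg38; for read assignment, mismatches and scaling no source used here gives the method. Deposited by the authors were read counts for 1 mock library and the dCTT library and, for the others, signal, namely read counts multiplied by a factor per library. All values (100%, tolerance 0.001 of a read) were whole multiples of their library's step, so read counts were recovered.

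Libraries were grouped by genotype label; mock columns could be matched to the group only. Replicates within P351A and within C352A differed beyond counting error (chi-square over degrees of freedom from 4.10 to 72.1). Log2(value + 1) of the 15 rescue libraries was fitted with limma 3.58.1 in R 4.3.3 (group as the only term, mean-variance trend, 2-sided), for hairpins with a mean of 10 or more. Alternatives used edgeR 4.0.16 and DESeq2 1.42.0 on the recovered counts, other scalings, pseudocounts and filters, a replicate block and libraries left out. edgeR on the recovered counts at the deposited scale called 120 hairpins higher and 46 lower. The fit was tested on simulated data with a fixed spread, the same for every hairpin and not estimated from these libraries. It called no unchanged hairpin there (0%).

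The members and lists were chosen with earlier results of these data known. Named hairpins are those called, at or above the median mean, without overlap of the 6 libraries: the 14 with the largest excess and up to 14 with the largest deficit (10 qualified), copies counted once; and list members, markers and the 10 with the highest mean in the 6 libraries. Floors are 3 reads over a group and cover counting error only. Sequences are from RefSeq (GRCh38.p14), host genes from GENCODE release 29.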

Additional observations from a re-analysis of the deposited data

How the results depend on the processing

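Of the 78 named hairpins that were called, 74 kept their direction under all 20 settings and 49 kept their call. The direction of the median difference over all tested hairpins (0.56) depended on the scale. It was 0.12 with libraries centred on the median hairpin, 1.09 centred on the Microprocessor-independent hairpins, -0.29 with equal totals, 0.15 with edgeR's TMM, -0.079 with DESeq2, 0.39 with a pseudocount of 10, 0.16 with no filter on low values and 1.03 with a minimum mean of 100. The count of lower hairpins (47) was in the same order 78, 17, 105, 77, 91, 29, 30 and 17, and 20 with reads thinned to the shallowest library, a setting chosen after seeing the data. The count of higher hairpins (124) was 65 with equal totals and 74 with DESeq2. List members called higher numbered 56, and 34 with equal totals. Those called lower numbered 11, and 22 centred on the median hairpin, 3 centred on the Microprocessor-independent hairpins, 30 with equal totals, 22 with TMM, 24 with DESeq2, 6 with no filter and 7 thinned.

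Single hairpins turned under scalings. Centred on the median hairpin, mir-320a was -0.20, mir-320b-1 -0.20, mir-484 -0.063 and mir-17 -0.32. With equal totals the same 4 were -0.66, -0.66, -0.52 and -0.78, and let-7i was -0.071, mir-10a -0.27, mir-501 -0.27 and the miR-221/miR-222 median -0.10. With TMM the 4 were -0.15, -0.16, -0.12 and -0.28. With DESeq2 they were -0.37, -0.38, -0.35 and -0.50, and mir-10a was -0.019 and mir-501 -0.054. Centred on the Microprocessor-independent hairpins, the miR-15/16 median was 0.51, mir-27a 0.44, mir-26a-1 0.13, mir-181a-1 0.26 and mir-320c-1 0.062. With a minimum mean of 100 the median of the Microprocessor-independent list was 0.24. With each library left out in turn mir-484 lay between -0.051 (without the first C352A library) and 0.65, and the miR-15/16 median between -0.33 and 0.16 (0.10 without the second and 0.16 without the third C352A library). Beyond scale, the cause of these changes was not tested.

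Leaving out each library in turn gave 88 to 123 hairpins higher and 23 to 45 lower, a median of 0.55 to 0.62, and 45 to 56 list members higher and 5 to 10 lower. The mir-320 share differed by -18.2 to -16.2 percentage points, the hairpins detected by 125.3 to 251 and the share of the top 10 by -4.63 to -3.51 points. The median in hairpins lost in dCTT minus that in the rest (1.31) was 1.19 to 1.46 with libraries left out, 1.00 with a pseudocount of 10 and 1.142 with a minimum mean of 100. The median in hairpins raised by WT minus that in the uncalled (1.16) was 0.91 to 1.33 with libraries left out, 0.85 with a pseudocount of 10 and 0.94 with a minimum mean of 100. For UGU in the loop the difference of medians was 0.07; it was -0.11 with a minimum mean of 100, 0.29 with UGUG, -0.021 with GUG and between -0.0017 and 0.14 with libraries left out. Thinning turned the difference in hairpins detected from 175 to -79.3.

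Replicate numbers did not pair the libraries: deviations of same-numbered libraries had r of -0.20, -0.14 and -0.06. A replicate block over the 6 libraries called 142 higher and 50 lower, against 154 and 57 without it, with 64 and 13 list members. Limits of these data are 3 libraries a form, 199133 reads in the shallowest C352A library, shared reads of hairpin copies, and the 2 sets of libraries that mir-373 sets apart.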

Other observations

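Further hairpins outside the lists, chosen after their values were seen, also stood apart. mir-128-1, known from neurons, had 605, 677 and 651 scaled reads in P351A and 142, 189 and 125.2 in C352A (log2 difference 2.10 ± 0.32, SE, limma adjusted p = 5.2e-05). mir-744 had 1341, 1567 and 1388 against 370, 393 and 423 (1.85 ± 0.27, SE). Both kept their call under all 20 settings. mir-190a had 9.62, 12.6 and 7.81 in P351A and 2.26, 0 and 0 in C352A, so its C352A value rests on few reads.

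Late-numbered hairpins in the other direction included mir-1246, a fragment-like RNA often seen outside cells, with 22.9, 28.8 and 27.8 scaled reads in P351A and 75.8, 55.5 and 74.5 in C352A (log2 difference -1.33 ± 0.32, SE, adjusted p = 0.0027). mir-6087 had 1.83, 0.81 and 1.95 against 11.7, 15.5 and 7.03. Of the 36 hairpins with reads in every P351A library and none in C352A, mir-497 had the most, 32 reads in all; the P351A libraries were the deeper ones.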
